A study of Mus musculus with 6 samples.

Results

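The genes described here encode 2 groups of the protein synthesis machinery, 49 translation factors and 23 aminoacyl-tRNA synthetases, 72 genes of the 8251 that had a probe set with 1 gene symbol on the array. They were chosen by symbol alone, factors as names that begin with Eif or Eef and a digit, synthetases by the names of the enzymes for single amino acids. The symbols came from the array's probe annotation. The name rule also takes in regulators of the factors, namely the eIF2 kinases, the eIF4E binding proteins, eEF2 kinase and Eef1akmt1, a methyltransferase that acts on eEF1A. Between them the genes had 94 probe sets, and for the 17 genes with more than 1 the probe set with the highest mean signal was taken.

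Total RNA came from C2AS12, a mouse myoblast line of C2 descent, and was read on 6 oligonucleotide arrays as MAS5 signal, a linear intensity per probe set. All cultures had been infected with recombinant adenovirus for p300, a histone acetyltransferase and coactivator. The treatments were virus for wild-type p300 with doxycycline, virus for mutant p300, and virus for wild-type p300 alone, each taken after 24 h in low-serum differentiation medium (24 h) and before that medium was added (0 h), with 1 array per treatment and time. The series text gives apoptotic death as the outcome of the doxycycline and mutant treatments and survival as that of wild-type p300 alone. The labels say neither which mutation was used, nor what doxycycline does to these cells, nor how much p300 of its own the line makes, and no array is of uninfected cells. They name no separate cultures, and no treatment has a replicate array at either time. For the change from 0 h to 24 h, the spread behind each p-value is therefore how that change differed between treatments. For the comparison of outcomes at a given time, it is the spread between the doxycycline and mutant arrays. Either spread mixes differences between treatments with variation between arrays, which may be technical, and these parts cannot be separated.

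Translation begins when initiator tRNA, carried by eIF2, is placed on the small ribosomal subunit with eIF1, eIF1A and eIF3. The exchange factor eIF2B readies eIF2 for another round, while eIF4E, eIF4G and the helicase eIF4A bring in the capped mRNA. Elongation factors then deliver each charged tRNA and move the ribosome along, and the synthetases are the enzymes that charge each tRNA with its amino acid. Several cytosolic synthetases sit together in a multisynthetase complex, others are free, and a separate set works in mitochondria. Amino acid shortage and other stresses activate kinases that phosphorylate eIF2, which slows initiation but favours translation of ATF4, a transcription factor known to act on synthetase genes. When myoblasts differentiate they leave the cell cycle, and demand for protein synthesis shifts from growth to muscle proteins.

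The arrays had trimmed mean signals of 199.9 throughout, median signals between 68.7 and 78.05, and 23.3% to 26.5% of probe sets under a signal of 16.4, which was used as the floor. Precision is limited by how few arrays there are. The 9 spike-in controls, as a mean of log2 signals centred over the arrays, stood at 0.13, 0.23 and -0.18 in the doxycycline, mutant and wild-type arrays at 24 h, and -0.13 to -0.02 at 0 h. For the actin control the signal at its 3' end over that at its 5' end was 1.45, 1.49 and 1.33 in the same arrays at 24 h, against 1.30 to 1.34 at 0 h. Of 7 myoblast markers fixed for this check 6 were on the array and all 6 passed the filter on dim probe sets, with a summed signal of 2628 to 3255 at 24 h and 1889 to 2094 at 0 h. Of 6 macrophage and leukocyte markers 2 passed (Cd68 and Cd14), of 5 endothelial 0, of 4 epithelial 1 (Cdh1) and of 3 adipocyte 0. Ptprc, the pan-leukocyte marker, read 1.7 to 15.9 over the arrays, under the floor. The summed macrophage and leukocyte markers were 489.2 to 589.8 at 24 h and 576 to 680.5 at 0 h. The part of these shifts in the results below was not tested.

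Of the 72 genes, 60 had a mean signal no lower than 75.2, the median of all probe sets, and were tested: 38 of 49 factors and 22 of 23 synthetases. Just under that line lay Eif3f (mean 73.3), Eif2s2 (71.25) and Kars (69.9), and just over it Eif2ak4 (88.2), Eef1b2 (88.35) and Eef1a2 (92.8). The other genes not tested were Eif2ak2, Eif2ak3, Eif2s3y, Eif4e, Eif4enif1, Eif4h, Eif5a, Eef1g and Eef2k. Eif4e, Eif4h, Eef1g and Eif2s3y were under the floor on all 6 arrays, which says only that these probe sets gave no usable signal. Signals of different probe sets are not compared with each other below.

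The comparison of 24 h with 0 h asked which genes changed in differentiation medium whatever the treatment. By limma at an adjusted p under 0.05, 7 of 22 synthetases fell and 0 rose, while 3 of 38 factors fell and 1 rose, against 9% of all 6212 probe sets tested that fell and 7.24% that rose. The synthetases that fell were Vars, Wars, Gars, Aars, Nars, Lars and Iars, by 0.44 to 0.99 on the log2 scale. The median change was -0.34 over the synthetases, -0.15 over the factors and 0.00 over all probe sets. All 18 cytosolic synthetases tested had a mean change below 0, as did 26 of the 38 factors and 49.2% of all probe sets. The sign was the same in all 3 treatments, downward, for 16 of 22 synthetases (72.7%), 16 of 38 factors (42.1%) and 25.7% of all probe sets. Leaving out the mutant arrays left 4 synthetases and 1 factor called, with the share of all probe sets not given here. Testing every probe set, dim ones included, left 0 synthetases, 0 factors and 0% of all probe sets called. In that fit 9 of 23 synthetases and 12 of 49 factors had an unadjusted p under 0.05, against 16.3% of all probe sets. Scaled to the spike-in controls instead, the median of all probe sets was -0.12, that of the synthetases -0.46 and that of the factors -0.27. In total RNA of a whole culture, fewer cells of a kind and less RNA per cell cannot be told apart.

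**Figure D1:**
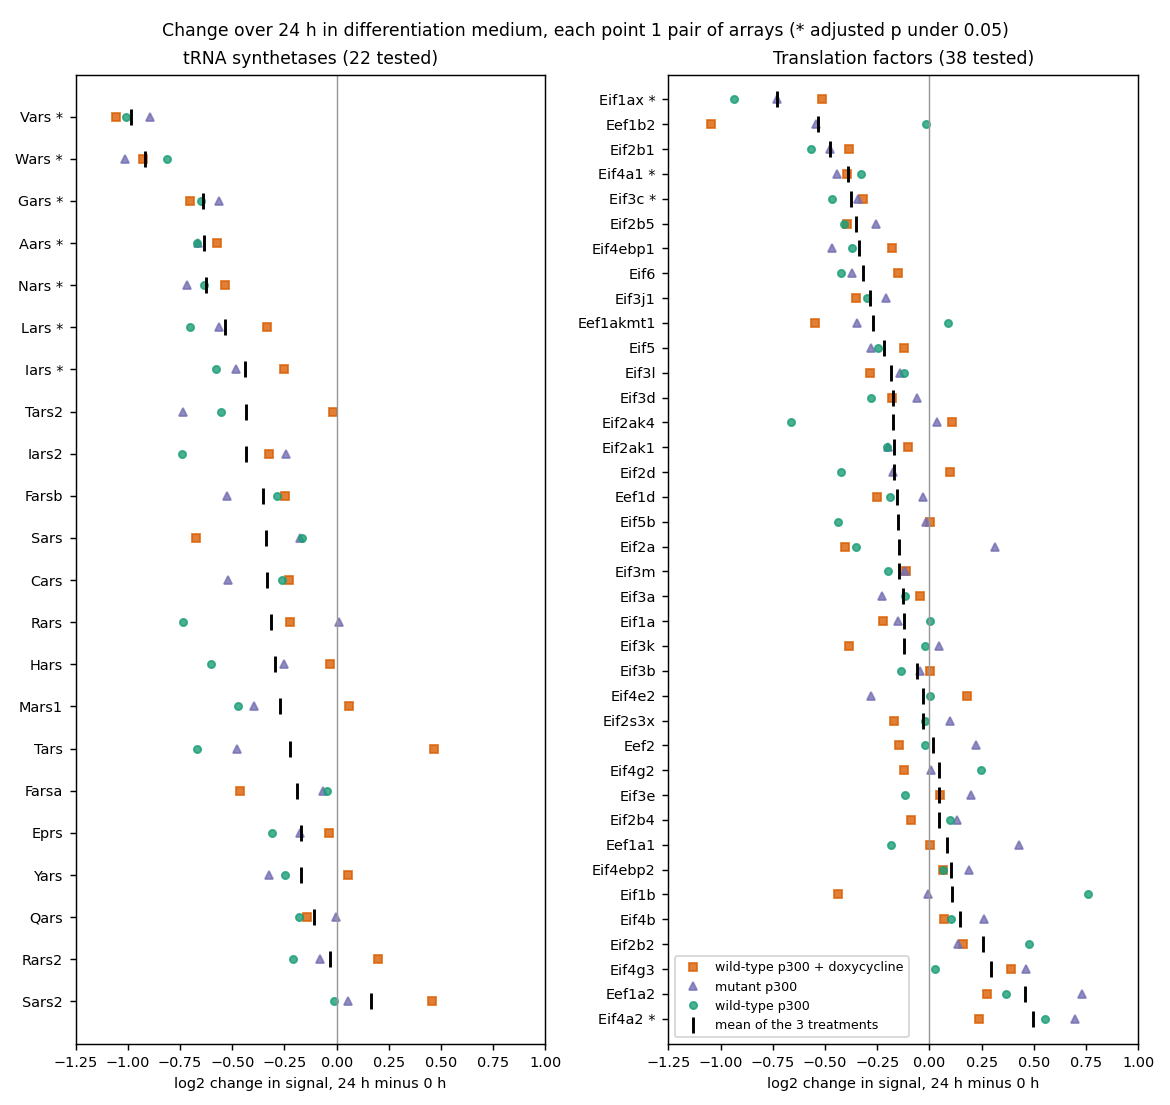
Log2 change in signal, 24 h minus 0 h, of each tested synthetase (left, 22 genes) and factor (right, 38 genes). Points are the 3 treatments, each from 1 pair of arrays, black ticks their mean, and asterisks mark genes called by limma. Of the synthetases, Sars2 has a mean above 0, at 0.17, while the factors run from -0.73 (Eif1ax) to 0.50 (Eif4a2).

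Vars, the synthetase for valine, had the lowest mean change of the group. It read 293.6, 403 and 329.7 at 24 h with doxycycline, mutant p300 and wild-type p300, against 610.4, 748.2 and 663 at 0 h. The highest array at 24 h was well below the lowest at 0 h, and the change was -0.99 ± 0.08 (mean over the 3 treatments; SD, n = 3; limma adjusted p = 0.000319), or 0.505-fold. Wars, the synthetase for tryptophan, read 257.7, 293.6 and 286.5 at 24 h against 490.7, 593.6 and 503.1 at 0 h, in the same order of treatments. Its groups of arrays did not overlap either, with a change of -0.92 ± 0.10 (adjusted p = 0.000666). The size of that change depends on the probe set, since the one taken has a name of the type given to probes shared with other sequences. The other probe sets of Wars changed by -0.33 (adjusted p = 0.0897) and -0.32 (adjusted p = 0.522) and were not called.

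Gars, Aars and Nars charge tRNAs with glycine, alanine and asparagine. Gars read 354.7, 460.5 and 414.2 at 24 h with doxycycline, mutant and wild-type p300, against 577.7, 680.1 and 650.5 at 0 h, a change of -0.64 ± 0.07 (limma adjusted p = 0.00267). Aars read 276.9, 276.1 and 310.8 at 24 h against 411.5, 437.5 and 494.2 at 0 h, a change of -0.63 ± 0.05 (adjusted p = 0.00359). Nars read 270.8, 253 and 291 at 24 h against 392.1, 415.3 and 452 at 0 h, a change of -0.63 ± 0.09 (adjusted p = 0.0045). In each of these 3 genes every array at 24 h lay below every array at 0 h. Among the other free cytosolic synthetases, Cars, Sars, Farsa, Farsb, Hars, Tars and Yars were not called, with mean changes from -0.35 (Farsb) to -0.17 (Yars). Tars, for threonine, was the least even of them. It changed by 0.47 with doxycycline, -0.48 with mutant p300 and -0.67 with wild-type p300.

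Lars and Iars, for leucine and isoleucine, were the members of the multisynthetase complex that fell. Lars read 627.4, 521.1 and 510.6 at 24 h with doxycycline, mutant and wild-type p300, against 791.8, 770.5 and 830.6 at 0 h, a change of -0.53 ± 0.18 (limma adjusted p = 0.0093). Iars read 379.3, 361.8 and 341.5 at 24 h against 451.9, 506.1 and 510 at 0 h, a change of -0.44 ± 0.17 (adjusted p = 0.0251). Neither gene's arrays overlapped between the times, and in both the change was smallest with doxycycline. Lars was called in 10 of 12 alternative settings and Iars in 7 of 12. The remaining members of the complex that were tested, Eprs, Mars1, Qars and Rars, had mean changes from -0.32 to -0.11 and were not called. Kars, for lysine, was not tested.

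The 4 mitochondrial synthetases tested were not called. Iars2 and Tars2 both changed by -0.44, with SDs of 0.27 and 0.37, Rars2 changed by -0.03 and Sars2 by 0.17. In Iars2 and Tars2 the arrays at 24 h lay below those at 0 h all the same. Counting every tested synthetase, 10 of 22 had all 3 arrays at 24 h below all 3 at 0 h and 0 had them above, against 15.5% of all probe sets below and 12.7% above. Among factors the counts were 7 of 38 below and 1 above. The median change of the 12 free cytosolic synthetases was -0.50, -0.52 and -0.62 with doxycycline, mutant and wild-type p300, and that of the 6 in the complex was -0.18, -0.29 and -0.53. The plot of medians by role shows these beside the factor groups.

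**Figure D2:**
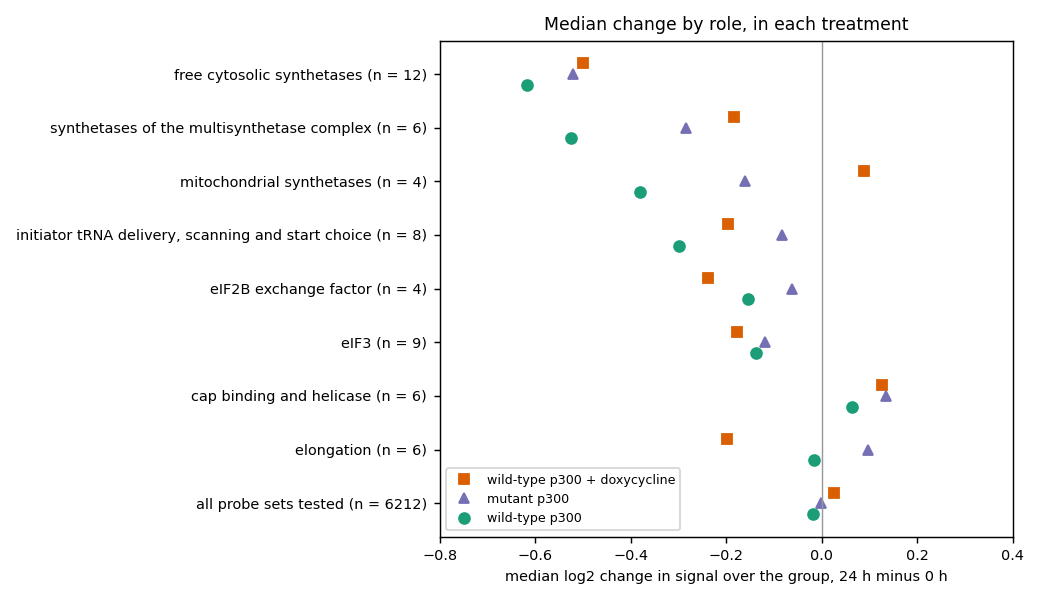
Median log2 change in signal, 24 h minus 0 h, of the tested genes of each role, with 1 point for each treatment and all 6212 probe sets in the bottom row. Free cytosolic synthetases lie lowest with doxycycline and mutant p300 as well as with wild-type p300 (-0.62), all probe sets between -0.02 and 0.03, and the cap-binding and helicase group above 0 in each treatment.

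Promoter sequence was searched for the synthetases because ATF4 acts on several of these genes through the composite element TGATGNAA, whose matches are shown here in capitals on the gene's strand. RefSeq promoters (GRCm38.p6, 250 bases before to 50 after the start site) were at hand for 16 synthetases and 41 factors. Of the synthetases that fell these covered Aars, Gars and Iars, and Vars, Wars, Nars and Lars were not among them. All matches below lie upstream of the start site and read TGATGNAA on the opposite strand.
Aars, chr8:111033714-111033753, plus strand: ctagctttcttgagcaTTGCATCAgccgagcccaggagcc
Gars, chr6:55037955-55037994, plus strand: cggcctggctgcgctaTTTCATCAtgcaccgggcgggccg
Tars, chr15:11399659-11399698, minus strand: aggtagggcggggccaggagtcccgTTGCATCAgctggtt
On either strand of the whole window the element was found in 5 of 16 synthetases (31.2%), Aars, Gars, Iars, Tars and Yars, in 2 of 41 factors (4.88%), Eef2k and Eif2s3x, and in 4.51% of the 27025 genes with a promoter. In Iars and Yars the match lay after the start site, and Tars and Yars were not called. The E-box CACGTG, the core bound by MYC and related factors, was found in 4 of 16 synthetases (25%) and 10 of 41 factors (24.4%), against 8.09% of all genes. These are matches of letters and no binding was measured.

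Among the factors, the eIF1A gene Eif1ax had the largest fall. Its protein helps the small subunit scan for the start codon. Eif1ax read 253, 285.3 and 231.5 at 24 h with doxycycline, mutant and wild-type p300, against 361.2, 473.7 and 443.7 at 0 h, a change of -0.73 ± 0.21 (limma adjusted p = 0.0042). The 2 times did not overlap, but a second probe set of it changed by -0.27 and was not called (adjusted p = 0.468). Of the 8 genes for initiator tRNA delivery, scanning and start choice that were tested, Eif1ax was the only one called. Over all probe sets 9% fell and 7.24% rose, so this count too lies near those shares. Eif1a, Eif2a, Eif2d, Eif2s3x, Eif5 and Eif5b had mean changes from -0.22 to -0.03, and Eif1b, a paralog of eIF1, changed by 0.11 ± 0.61.

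The eIF4A helicase genes Eif4a2 and Eif4a1 were called in opposite directions. Eif4a2 read 2091.3, 1978.5 and 1586.3 at 24 h with doxycycline, mutant and wild-type p300, against 1771.9, 1219.9 and 1080.4 at 0 h. It was higher at 24 h in each treatment, though the doxycycline array at 0 h lay above the wild-type array at 24 h, and it rose by 0.50 ± 0.23 (limma adjusted p = 0.0171). Eif4a1 read 404.9, 274.4 and 239.9 at 24 h against 533, 372.7 and 301.3 at 0 h and fell by 0.39 ± 0.06 (adjusted p = 0.0326). It fell within each treatment while the arrays of the 2 times overlapped, and its probe set has a name of the type given to designs with relaxed rules. Eif4a2 and Eif4a1 both lost their call without the mutant arrays. Over all alternative settings Eif4a2 was called in 7 of 12 and Eif4a1 in 5 of 11. Of the other genes of cap binding, Eif4b, Eif4e2, Eif4g2 and Eif4g3 had mean changes from -0.03 to 0.29 and were not called.

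eIF3, the scaffold of the initiation complex, had 9 tested subunits, of which 1 fell and 0 rose. Over all probe sets 9% fell and 7.24% rose, so with so few genes this count lies near those shares. Eif3c read 1959.6, 1716.6 and 1608.8 at 24 h with doxycycline, mutant and wild-type p300, against 2447.2, 2178.1 and 2220.9 at 0 h, a change of -0.38 ± 0.08 with no overlap (limma adjusted p = 0.0246). Eif3c was called in 6 of 12 alternative settings. The other subunits ran from -0.28 (Eif3j1) to 0.05 (Eif3e), and the median of the 9 was -0.14. For eIF2B, 0 of 4 subunits were called. Eif2b1 read 101.3, 132.2 and 100.6 at 24 h against 132.5, 184.1 and 149.3 at 0 h, a change of -0.48 ± 0.09 with no overlap between the times (adjusted p = 0.0619). Eif2b5, the catalytic subunit, changed by -0.35 ± 0.08 (adjusted p = 0.0501), and its second probe set by -0.72 (adjusted p = 0.00997). Eif2b2 and Eif2b4 changed by 0.26 and 0.05. Eif6, which keeps the large subunit from joining too early, changed by -0.32 ± 0.14 (adjusted p = 0.06).

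**Figure D3:**
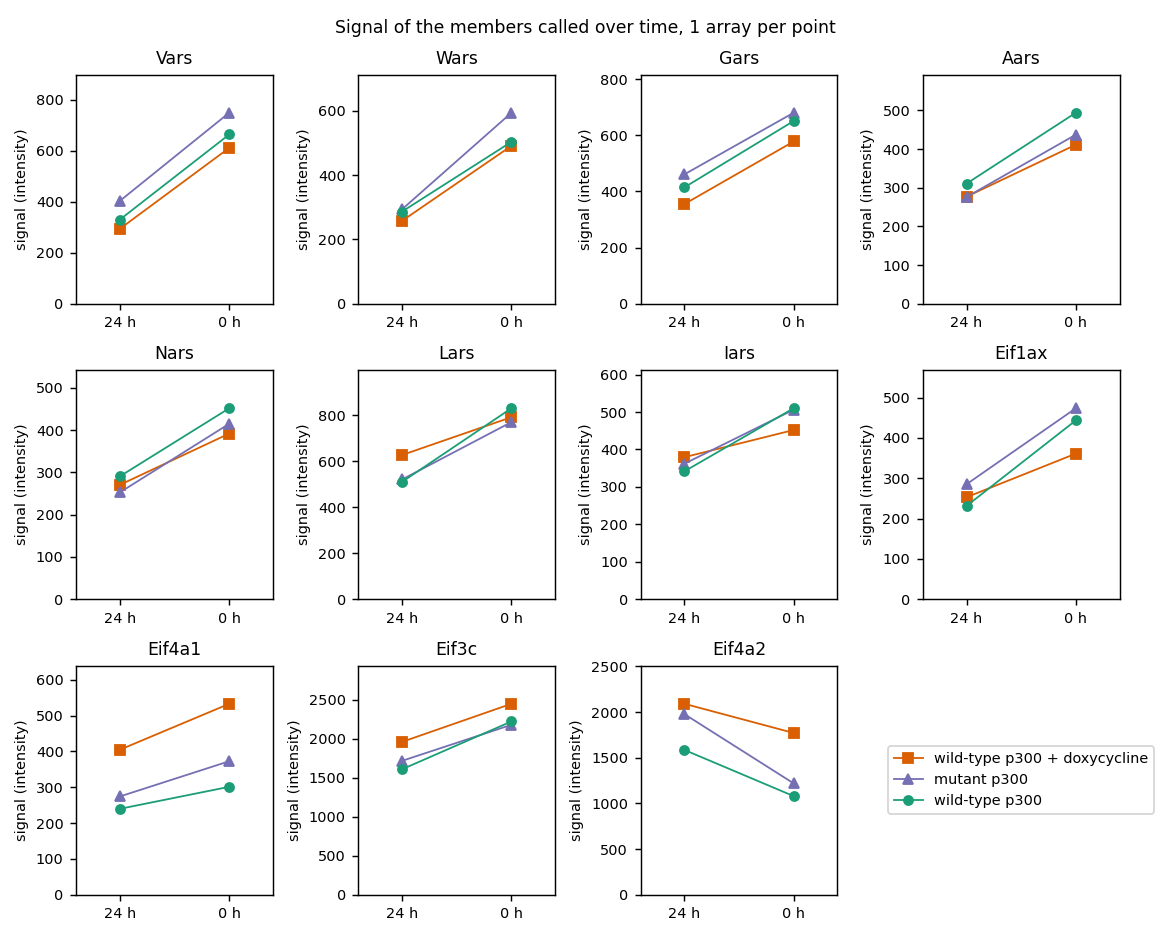
Signal (linear intensity, axes from 0) of the 11 genes called over time, 24 h left and 0 h right, with a line for each treatment and 1 array per point. The 7 synthetases and Eif1ax, Eif4a1 and Eif3c slope down at 24 h in every treatment, and Eif4a2 alone slopes up.

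None of the 6 elongation genes tested was called by limma. An unadjusted p under 0.05 was found for 1 of the 6, against 1955 of all 6212 probe sets. Eef1a1, the main carrier of charged tRNA, read 10084.6, 11796.9 and 8938.6 at 24 h with doxycycline, mutant and wild-type p300, against 10052.1, 8763.6 and 10157.3 at 0 h, a change of 0.08 ± 0.31. Its paralog Eef1a2, known as the form that replaces eEF1A1 in mature muscle, read 112.3, 129.7 and 81.1 at 24 h against 92.7, 78.1 and 63 at 0 h. Eef1a2 was higher at 24 h in every treatment, but the times overlapped and its change of 0.46 ± 0.24 was not called (adjusted p = 0.15). Eef1b2, of the exchange factor for eEF1A, read 52.6, 76 and 90.5 at 24 h against 108.7, 110.9 and 91.4 at 0 h, a change of -0.54 ± 0.52 (adjusted p = 0.166). The arrays of the 2 times did not overlap, but the changes were uneven, -1.05 with doxycycline and -0.55 with mutant p300 beside -0.01 with wild-type p300. The probe set of Eef1b2, like that of Eif4a1, has a name of the relaxed type. A second one, too dim to be tested, changed by 0.01. Eef2, the translocase, changed by 0.02 ± 0.19.

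The regulators gave no calls. Eif2ak1 (HRI, the eIF2 kinase activated by heme shortage) read 164.1, 179.6 and 170.3 at 24 h with doxycycline, mutant and wild-type p300, against 176.4, 206.4 and 196.1 at 0 h. It changed by -0.17 ± 0.06, and Eif2ak4 (GCN2, activated by uncharged tRNA) by -0.17 ± 0.43, and neither was called. Eif2ak2 (PKR, activated by double-stranded RNA) read 57.7, 43.6 and 51.8 at 24 h against 61.8, 50.2 and 41.3 at 0 h. Eif2ak3 (PERK, of the endoplasmic reticulum) read 43, 41.3 and 35.6 at 24 h against 39.3, 32.6 and 44.3 at 0 h. Both were too dim to be tested, and their arrays overlapped between the times. Eif4ebp1, whose protein holds back eIF4E until mTOR phosphorylates it, read 198.4, 188.1 and 228.7 at 24 h against 224.7, 260.1 and 295.3 at 0 h, with doxycycline, mutant and wild-type p300. It was lower at 24 h in every treatment, with a change of -0.34 ± 0.15, but the times overlapped and it was not called (adjusted p = 0.092). Its paralog Eif4ebp2 read 839.8, 1018 and 923.1 at 24 h against 803.2, 893.4 and 883.7 at 0 h, a change of 0.11 ± 0.07 that was not called. Eef2k, the kinase that blocks eEF2, read 24.4, 63 and 28.7 at 24 h against 44.4, 37.5 and 19.8 at 0 h, with no common direction.

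The comparison of the doxycycline and mutant arrays with wild type at 24 h asked whether these genes go with the outcome. Limma called 0 of the 60 genes, against 0.773% of all probe sets (0.0483% higher, 0.724% lower), and 4 of the 60 had an unadjusted p under 0.05, against 713 of 6212. On simulated data the fit found 6 of 50 differences of 0.5 log2 units and 39 of 50 of 1 unit, so smaller differences could go uncalled. The simulated noise came from the time fit with treatment as a block and held no differences between doxycycline and mutant p300. In the real arrays those enter the error of the outcome fit, which may therefore find fewer. This fit rests on 1 wild-type array, taken to vary as the doxycycline and mutant arrays do. Eif2ak4, the sensor of uncharged tRNA, read 108.5 and 96.5 with doxycycline and mutant p300 and 50 with wild-type p300 at 24 h, a log2 difference of 1.03 ± 0.34 (SE; adjusted p = 0.273). At 0 h it read 100.7 and 94.1 with doxycycline and mutant p300 and 79.2 with wild type. The wild-type array at 24 h was thus the low one of the 6.

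Iars2 and Farsb gave the largest differences among the synthetases, in opposite directions. Iars2 read 240.6 and 260.7 with doxycycline and mutant p300 and 157 with wild type at 24 h, a difference of 0.67 ± 0.20 (SE; limma adjusted p = 0.233). At 0 h it read 301.3 and 308.2 with doxycycline and mutant p300 and 262.4 with wild type, so the wild-type array was the low one at both times. Farsb, a subunit of the phenylalanine enzyme, read 90.2 and 91.5 with doxycycline and mutant p300 and 150.5 with wild type, a difference of -0.73 ± 0.28 (adjusted p = 0.364). At 0 h Farsb read 106.9 and 131.5 against 183.3, so wild type was the higher array at both times. Its partner subunit Farsa, looked up after the values were seen, read 124.8 and 162.3 with doxycycline and mutant p300 and 118.4 with wild type at 24 h, with wild type the lowest. Hars read 238.2 and 256 with doxycycline and mutant p300 and 182.2 with wild type at 24 h, a difference of 0.44 (adjusted p = 0.508). Qars read 475.9 and 504.7 with doxycycline and mutant p300 and 383.1 with wild type, a difference of 0.36 (adjusted p = 0.493). In both, the wild-type array at 24 h was the lowest of the 6.

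Of the factors with the next largest differences at 24 h, Eef1a2 was at 0.57 ± 0.34 (SE; limma adjusted p = 0.587), Eif2d at 0.53 ± 0.22 (adjusted p = 0.413) and Eef1b2 at -0.52 ± 0.37 (adjusted p = 0.672). Eif2d, a factor that can deliver initiator tRNA without eIF2, read 218.3 and 191.9 with doxycycline and mutant p300 and 141.9 with wild type at 24 h, against 203.9, 216.9 and 190.4 in that order at 0 h. Over the whole group, both doxycycline and mutant arrays were higher than wild type for 8 of 22 synthetases and 17 of 38 factors at 24 h (39.6% of all probe sets), and lower for 7 and 7 (28.4%). Median differences from wild type at 24 h were 0.03 for synthetases with doxycycline and 0.03 with mutant p300, and -0.02 and 0.15 for factors. The 2 differences share the wild-type array. Between doxycycline and mutant p300 themselves, for which no test was made, the median difference was -0.02 for synthetases and -0.14 for factors at 24 h.

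At 0 h, before the medium change, limma called 0 of the 60 genes and 0% of all probe sets. An unadjusted p under 0.05 was found for 2 of the 60, against 262 of 6212 probe sets. Eif1b read 428.5 and 464.9 with doxycycline and mutant p300 and 253.9 with wild type at 0 h, a difference of 0.81 (adjusted p = 0.901). At 24 h it read 316.6 and 462.9 with doxycycline and mutant p300 and 429.9 with wild type, so the wild-type array was no longer the low one. Fits that each dropped 1 doxycycline or mutant array put the Eif1b difference at 0 h between 0.76 and 0.87. Each of them leaves a single such array at 1 of the times, so no call is drawn from them. Tars read 317.9 and 443.7 with doxycycline and mutant p300 and 574.1 with wild type at 0 h. Both doxycycline and mutant arrays were higher than wild type at 0 h for 3 of 22 synthetases and 17 of 38 factors (37% of all probe sets), and lower for 10 and 7 (32.1%). For synthetases the median difference from wild type at 0 h was -0.18 with doxycycline and -0.002 with mutant p300, and for factors 0.03 and 0.06, as the plot of differences from the wild-type array shows.

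**Figure D4:**
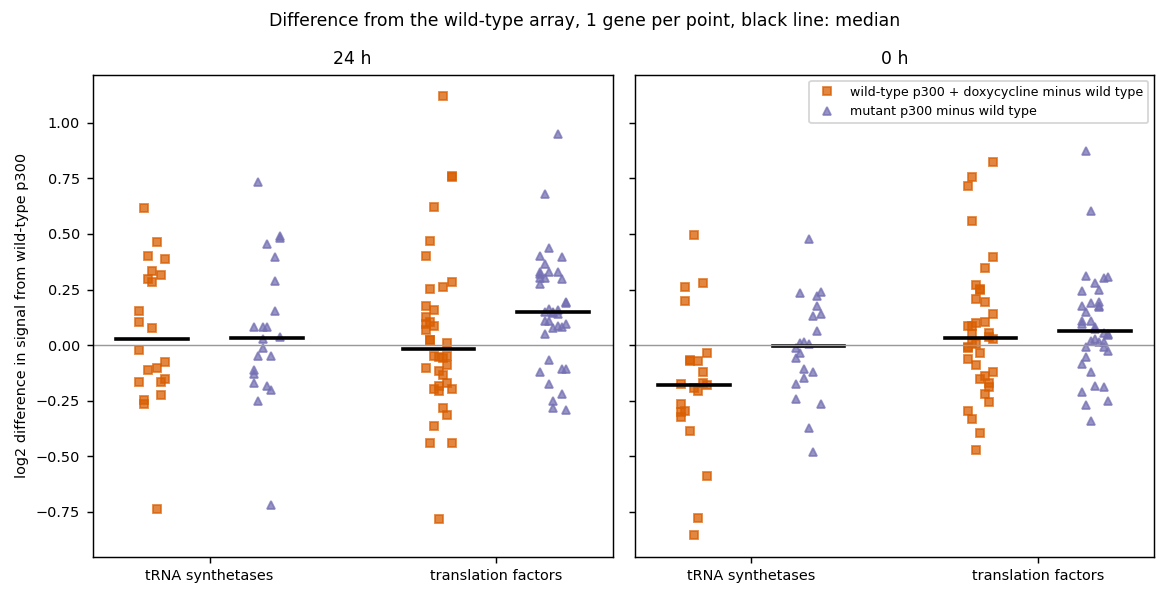
Log2 difference in signal from the wild-type array of the same time, 24 h left and 0 h right, with 1 point per gene (22 synthetases, 38 factors) and black lines at the medians. The medians lie between -0.18 and 0.15, and single genes, such as Eif2ak4 at 24 h and Eif1b at 0 h, lie far from them.

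Whether the change over 24 h differed between outcomes was asked by the interaction. Limma called 0 of the 60 genes and 0% of all probe sets in the interaction fit. Of the 60, 1 had an unadjusted p under 0.05, Eif1b, against 197 of 6212 probe sets. That fit does not pair the times of a treatment, so differences between doxycycline and mutant p300 enter its error. With treatment as a block, added after seeing the data and with 1 residual degree of freedom, limma called 1 of the 60, Eif1b, at -0.98 ± 0.23 (SE; adjusted p = 0.0377), against 0.853% of all probe sets. Unpaired fits that each dropped 1 doxycycline or mutant array put the Eif1b interaction between -1.26 and -0.71. Each of them leaves a single such array at 1 of the times, so no call is drawn from them. The median synthetase change was -0.24 with doxycycline, -0.44 with mutant p300 and -0.57 with wild-type p300. Of the 22 tested synthetases, 17 had a change below 0 with doxycycline, 20 with mutant p300 and all 22 with wild type. Over all 6212 probe sets the counts below 0 ran in the same order, at 2932, 3124 and 3251. A difference between the synthetase medians was not tested.

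Other genes of the pathway were taken from 6 lists, which were chosen with earlier results of these data known. Their counts are therefore descriptive and no independent support. Of 17 genes of the integrated stress and amino acid response that were tested, 6 fell over 24 h and 0 rose by limma, against 9% and 7.24% of all probe sets, with a median change of -0.19. Mthfd2, of mitochondrial folate metabolism, had the largest change, -1.80 ± 0.35 (adjusted p = 0.000102). Asns, which makes asparagine, changed by -1.65 ± 0.08 (adjusted p = 2.05e-05). Atf5, a transcription factor of this response, read 162.1, 140.7 and 125.4 at 24 h with doxycycline, mutant and wild-type p300, against 358.5, 246.4 and 350.7 at 0 h, and fell by 1.15 ± 0.34 (adjusted p = 0.00172). Slc7a5, a transporter of leucine and other large amino acids, fell by 0.90 ± 0.30. Atf4 itself, looked up after the values were seen, changed by -0.25 ± 0.03 and was not called (adjusted p = 0.0792). At 24 h, 2 of the 17 were lower with doxycycline and mutant p300 than with wild type, against 0.724% of all probe sets. Psat1, of serine synthesis, read 499 and 754 against 1632 with wild type (difference -1.41, adjusted p = 0.0442), and over 24 h it fell by 1.08 ± 0.62 across the treatments (adjusted p = 0.00738). Nupr1, a stress-induced gene, read 198.1 and 208.8 against 536.4 with wild type (difference -1.40, adjusted p = 0.0181). At 0 h Nupr1 read 250.3 and 226 against 390.2 with wild type, and Psat1 read 1522.2 and 1771.3 against 2156.4. Both genes were thus lower than wild type before the medium change too, though neither was called at 0 h.

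The counts of the other lists stand against the same 9% of all probe sets that fell and 7.24% that rose. Of 19 genes of ribosome assembly and RNA polymerase I, 3 fell over 24 h and 0 rose, and with so few genes such counts lie near that share. Nop56, of the box C/D complex that modifies ribosomal RNA, fell by 1.39 ± 0.31 (limma adjusted p = 0.000534), Fbl, its methyltransferase, by 0.56 ± 0.15 and Rrs1 by 0.43 ± 0.06. Of 10 genes of release, recycling and poly(A) binding, 2 fell, Gspt1, which encodes a release factor, by 0.42 ± 0.10 and Pabpc4 by 0.68 ± 0.36. Of the 2 scaffold genes of the multisynthetase complex, Aimp2 fell by 0.68 ± 0.23 (adjusted p = 0.00662) and Aimp1 was not called, at 0.17 ± 0.37. Of 11 genes of mTOR, S6 kinase and eIF4E kinase signalling, 1 rose and 1 fell. These were Pdcd4, an inhibitor of eIF4A, at 0.51 ± 0.34 and Ddit4, an inhibitor of mTOR signalling, at -0.39 ± 0.21. Of 5 mitochondrial translation factors 0 were called by limma and 1 had an unadjusted p under 0.05, against 1955 of all 6212 probe sets.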

How the data were processed

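Total RNA was hybridised to 6 Affymetrix mouse arrays, 1 for each of 3 treatments at 24 h and 0 h. Per the submitters' processing notes the deposited intensity values are MAS5 signals, and the software version is not given in the sources used here. Every array had the same trimmed mean of 199.9, so the values had been scaled before deposit. Probe sets were named by the platform annotation, and 10833 had 1 symbol, 396 several and 1193 none. The 66 control probe sets were left out. Signals were floored at 16.4 (percentile 25) and put on the log2 scale, and the 6212 of 12422 probe sets with a mean signal of at least 75.2 were tested with limma 3.58.1 (R 4.3.3), with a variance trend and Benjamini-Hochberg adjustment over all 6212, called at an adjusted p under 0.05. Time was fitted with treatment as a block (2 residual degrees of freedom), so differences between treatments in the change over time form its error. Outcome was fitted as a mean for each outcome and time, the single wild-type array being assumed to vary like the others. The script was tested on simulated data, with noise taken from the time fit and no differences between treatments beyond those put in. Of 50 probe sets changed by 1 log2 unit it called 47 for time and 39 for outcome at 24 h. Of 50 changed by 0.5 it called 29 and 6, and of 6012 unchanged it called 6 and 17.

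Full values are given for the genes called, for the 4 factors and 4 synthetases with the largest change over time and likewise at 24 h, and for the eIF2 kinases, eIF4E binding proteins, eEF2 kinase and eEF1A paralogs. Pathway genes are named where called, at most 4 a list (those with the lowest adjusted p over time), and other names, Psat1 and Nupr1 among them, were chosen after the values were seen. Members and lists were chosen with earlier results of these data known. Alternatives covered the floor, the filter, the scaling, the variance trend, the block, the probe set and leaving out arrays. A fit of the interaction with treatment as a block (1 residual degree of freedom) was added after seeing the data.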

Additional observations from a re-analysis of the deposited data

How the results depend on the processing

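Of the 7 synthetases and 4 factors called over time, 0 and 0 were called when dim probe sets were tested too, as were 0% of all 12422 probe sets. The factor count was 2 with scaling to the spike-in controls, 2 with no variance trend and 1 with no treatment block. Leaving out each treatment in turn gave 1 to 4 factors and 4 to 8 synthetases, with the lowest counts without the mutant arrays. The shares of all probe sets called in these alternatives are not given here. The counts therefore do not show a loss particular to these genes. Dropping 1 doxycycline or mutant array from the outcome and interaction fits leaves a single such array at 1 of the times. The calls of those fits are therefore not given. Their Eif1b estimates ran from 0.76 to 0.87 for the outcome at 0 h and from -1.26 to -0.71 for the interaction. Over 246 alternatives for single genes, 210 kept their direction and side of the threshold, 34 lost a call, 1 gained one and 1 changed sign, the difference of Qars at 24 h, at -0.0097 with the spike-in scaling. With treatment as a block in the interaction, chosen after seeing the data, 1 gene was called (Eif1b). The cause of these shifts was not tested. The fits of the change over time were paired by treatment, except the one with no treatment block. The outcome fits and the main interaction fit held no treatment term. The labels give no replicate numbers to pair by. Dim genes such as Eif2s2 and Kars were tested only in the fit of all probe sets.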

Other observations

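A second probe set of Eif4ebp2, dimmer than the one taken, read 158.7, 191.9 and 110.7 at 24 h with doxycycline, mutant and wild-type p300, against 41.8, 38.4 and 176.1 at 0 h. Its change was 1.92 with doxycycline, 2.32 with mutant p300 and -0.67 with wild type, so the directions were opposite. The difference from wild type at 0 h was -2.14 (limma adjusted p = 0.16) and the interaction 2.79 (adjusted p = 0.561), neither called. With treatment as a block, chosen after seeing the data and with 1 residual degree of freedom, the interaction was called (adjusted p = 0.00188). The brighter probe set did not show this, with changes of 0.06, 0.19 and 0.06 in the same order of treatments. Eif3f, too dim to be tested, read 91.1, 79.1 and 82.4 at 24 h with doxycycline, mutant and wild-type p300, against 49.5, 63.8 and 73.8 at 0 h, without overlap.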
